A study of Rattus norvegicus with 10 samples.

Results

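The genes described here are 36 genes of the G1/S transition and of DNA replication, listed by name and read in rat left ventricle after GATA-4 gene transfer. A gene was measured by its brightest probe set among those that the platform annotation gives to a single gene, and 34 of the 36 genes had such a probe set, of 14217 genes named on the array. Cdc6 had none, and the probe sets of Rrm2 are shared with a near copy, Rrm2l1, so neither gene has a value here. Of the 34 genes 33 were bright enough on average to be tested, among 10688 genes tested in all, and Brca1 was too dim. Expression was measured on Affymetrix rat arrays in 10 left ventricular samples of male Sprague-Dawley rats of 250 to 300 g, taken on day 3. Of these, 5 came after transfer of the gene for GATA-4 and 5 after transfer of LacZ, a bacterial reporter gene used as the control, so every rat had received a transferred gene. The sources used here do not give age, vector or site of delivery, and the sample labels name no animal, so that p-values measure the spread between these samples.

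Before a cell copies its DNA, the origin recognition complex, CDC6 and CDT1 load the ring of MCM2 to MCM7 onto origins. Cyclin D and cyclin E kinases free E2F transcription factors from the retinoblastoma protein. CDC45 joins the loaded MCM ring to form the active helicase, and polymerases held by the PCNA clamp copy the strands. Adult heart muscle cells rarely enter this programme, while fibroblasts, endothelial cells and leukocytes of the ventricle can divide.

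The arrays were checked first. The mean deposited signal, trimmed by 2% at each end, was 142 on GATA-4 array 1 (the dim array below) and 249 to 329 for GATA-4 arrays 2 to 5, against 249 to 314 on the LacZ arrays. Values below are log2 signals after quantile normalization between arrays. Gata4, the transferred gene, had a mean of 11.44 ± 0.14 after GATA-4 transfer and 10.65 ± 0.13 after LacZ transfer (SD, n = 5 each). Its adjusted p was 0.00131 in limma, and each GATA-4 array lay above each LacZ array. The other Gata4 probe set, too dim to be tested, had means of 5.24 and 4.44, and its groups overlapped. Of 10 markers of cardiac muscle 9 were on the array, with group means from 12.43 to 13.70 and none past the threshold. Myh7 read the same 13.72 on GATA-4 arrays 2 to 5 and on LacZ array 5. Normalized signals this bright have little room to differ, so these markers are a weak check.

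With GATA-4 3 of the 33 tested replication genes rose and none fell. They were Mcm5 (1.43-fold) and Mcm2 (1.42-fold), subunits of the helicase ring, and Ccne1 (1.73-fold), which encodes cyclin E1. A gene is said to rise or fall where limma's p, adjusted by the Benjamini-Hochberg method over 18625 probe sets, lay under 0.05. The 3 genes are 9.09% of those tested. Of all genes tested 3.71% rose and 2.66% fell. At an unadjusted limma p under 0.05, 10 of the 33 genes were higher and none lower (30.3%), where 12% of all genes were higher. The GATA-4 arrays all lay above the LacZ arrays for 6 of the 33 genes (18.2%), against 4.56% of all genes. Over the 34 genes on the array the median log2 difference, GATA-4 minus LacZ, was 0.20 and 27 differences were above 0, where the median over all genes tested was -0.017 and 47.4% lay above 0. The cumulative plot of differences shows the replication genes to the right of all genes over most of their range, with a short tail below 0. In whole tissue, more cells in cycle and more RNA per cell cannot be told apart.

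**Figure D1:**
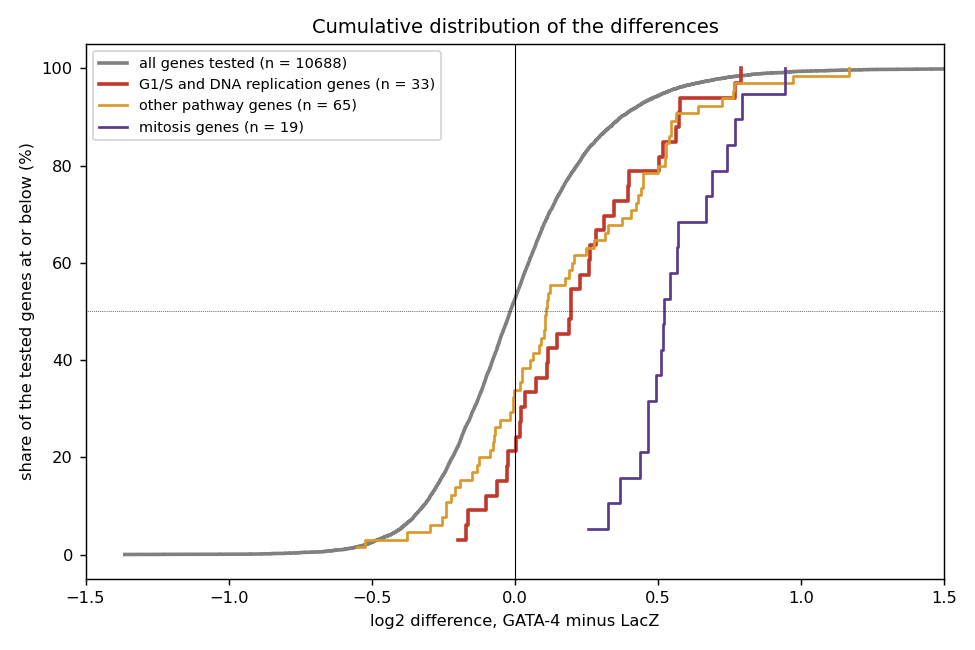
Cumulative share of tested genes (vertical axis, %) against the log2 difference, GATA-4 minus LacZ (horizontal axis), for 33 G1/S and DNA replication genes, 65 other genes of the pathway, 19 mitosis genes and all 10688 genes tested. The replication genes run from -0.20 to 0.79 and lie right of all genes, and the mitosis genes lie farther right, all above 0.

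The 4 genes with the smallest p, Mcm5, Ccne1, Mcm2 and Pole2, are shown by their promoters, because replication genes are known for sharing E2F sites there. Each sequence runs 5′ to 3′ on the gene's own strand, from 250 bases before the RefSeq start to 50 after it, in build GRCr8. Capitals mark matches, on either strand, to the E2F letters TTTCCCGC and TTTGGCGC, to CCAAT, to TTTGAA of the cell cycle homology region and to the GC box GGGCGG. The windows are chr19:13488563-13488862 on the plus strand for Mcm5, and, on the minus strand, chr1:99927860-99928159 for Ccne1, chr4:122918045-122918344 for Mcm2 and chr6:93435312-93435611 for Pole2.
Mcm5: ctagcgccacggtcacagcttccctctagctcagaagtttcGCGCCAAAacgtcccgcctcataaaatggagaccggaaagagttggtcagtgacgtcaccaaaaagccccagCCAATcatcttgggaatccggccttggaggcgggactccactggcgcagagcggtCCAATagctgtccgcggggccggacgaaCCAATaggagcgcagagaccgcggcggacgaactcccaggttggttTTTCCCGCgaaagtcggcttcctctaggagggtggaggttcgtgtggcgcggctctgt
Ccne1: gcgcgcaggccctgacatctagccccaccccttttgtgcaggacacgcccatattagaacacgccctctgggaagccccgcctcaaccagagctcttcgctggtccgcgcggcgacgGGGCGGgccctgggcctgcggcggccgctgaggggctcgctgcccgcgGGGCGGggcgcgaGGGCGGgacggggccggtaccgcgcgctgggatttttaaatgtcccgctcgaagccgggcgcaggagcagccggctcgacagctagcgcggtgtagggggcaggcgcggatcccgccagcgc
Mcm2: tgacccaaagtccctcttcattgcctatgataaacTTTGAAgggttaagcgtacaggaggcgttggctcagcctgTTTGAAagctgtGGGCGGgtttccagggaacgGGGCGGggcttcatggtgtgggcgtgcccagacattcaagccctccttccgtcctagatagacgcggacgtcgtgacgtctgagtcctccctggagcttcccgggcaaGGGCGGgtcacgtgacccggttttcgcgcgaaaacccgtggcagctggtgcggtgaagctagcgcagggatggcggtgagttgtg
Pole2: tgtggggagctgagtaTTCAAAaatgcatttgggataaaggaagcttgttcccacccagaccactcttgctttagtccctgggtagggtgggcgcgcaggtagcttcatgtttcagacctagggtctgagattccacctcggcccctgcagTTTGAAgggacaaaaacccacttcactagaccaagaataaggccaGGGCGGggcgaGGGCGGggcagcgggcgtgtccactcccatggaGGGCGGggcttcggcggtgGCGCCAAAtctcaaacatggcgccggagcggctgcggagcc
Mcm5 held an E2F match in the 8 bases just before its start, from -8 to -1, another from -209 to -202, and 3 CCAAT boxes. Pole2 held 1 E2F match, from 9 to 16 after its start, 3 GC boxes and 2 copies of TTTGAA. Neither Ccne1 nor Mcm2 held these E2F letters in the window, each held 3 GC boxes, and Mcm2 held 2 copies of TTTGAA. Other forms of an E2F site were not searched. The Mcm2 window holds the close variant TTTCGCGC, left in lower case, so the lack of a match does not show that a site is absent.

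A promoter was given by RefSeq for 30 of the 36 genes. E2F letters stood in 11 of the 30 (36.7%), among them Mcm3, Mcm6, Mcm7, Cdt1, Pola1, Rfc3, Tyms, Chek1 and Msh6, where 2.99% of the 8927 promoters of genes tested here and 1.45% of all 33469 promoters held them. CCAAT stood in 17 of the 30 (56.7%), against 37.9% of promoters of tested genes. GC boxes were in 20 (66.7%), against 62.7%, and TTTGAA was in 3 (10.0%), against 11.3%. Base composition was close, with a median GC content of 59.0% in these promoters and 61.0% in those of tested genes. The median log2 difference was 0.20 for the 11 genes whose promoter held the E2F letters and 0.19 for the 19 whose promoter did not. Other E2F forms were not searched, so the 19 cannot be taken to lack E2F sites. A match in these letters is a description of the sequence and not a measured site.

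Of the 8 measured genes of origin licensing and the helicase 2 rose, where 3.71% of all genes tested did. All 8 differences were above 0, where 47.4% of those of all genes tested were. Their median was 0.45 in log2 units, though the differences of Mcm7 and Cdc45 lay near 0 and turned in sign under other settings. Mcm5 had log2 signals of 8.14, 8.00, 8.26, 7.89 and 7.90 on GATA-4 arrays 1 to 5, against 7.56, 7.31, 7.63, 7.54 and 7.56 on LacZ arrays 1 to 5. No array overlapped, and the dim array was among the high ones. The difference was 0.52 (SE 0.11), with limma's adjusted p at 0.0241. Mcm2 read 8.33, 8.46, 8.63, 8.21 and 8.27 with GATA-4, against 7.76, 8.18, 7.60, 8.04 and 7.80 with LacZ, a difference of 0.50 (SE 0.13, limma adjusted p = 0.0452). Here the lowest GATA-4 array and the highest LacZ array lay close together without crossing.

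Mcm6, a further subunit of the ring, read 8.02, 8.21, 8.19, 8.10 and 8.08 with GATA-4, against 7.87, 7.82, 7.63, 7.91 and 7.81 with LacZ. The groups did not overlap, but the difference of 0.31 (SE 0.10) missed the threshold with an adjusted p of 0.0836 in limma. Mcm3 read 6.30 for the dim array and 7.92, 8.29, 7.93 and 8.03 on the other GATA-4 arrays, against 7.21, 7.20, 6.93, 7.09 and 7.17 with LacZ. Mcm4 read 6.97 for the dim array and 8.13, 8.21, 7.93 and 8.06 on the others, against 7.65, 7.45, 7.37, 7.30 and 7.56 with LacZ. For both of these subunits the dim array lay below every LacZ array and the other 4 GATA-4 arrays lay above every one, and the differences of 0.57 (SE 0.29) and 0.39 (SE 0.21) did not pass (limma adjusted p = 0.274 and 0.281). Mcm7 stood apart from the other subunits with 8.62, 8.90, 9.08, 8.71 and 9.03 with GATA-4, against 9.07, 8.89, 8.69, 8.92 and 8.75 with LacZ. Its difference of 0.0037 had a 95% interval from -0.25 to 0.26, and its sign turned to -0.041 when arrays were centred on their medians.

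Cdt1, the loader of the ring, read 6.09, 7.06, 7.35, 7.16 and 6.91 with GATA-4, against 6.19, 6.69, 5.86, 5.94 and 6.04 with LacZ. The dim array lay within the LacZ range and the other 4 above it, and the difference of 0.77 (SE 0.23) had an adjusted p of 0.0719 in limma. Cdc45, which completes the active helicase, read 6.84, 7.44, 7.71, 7.40 and 7.38 with GATA-4, against 7.62, 7.40, 7.25, 7.32 and 7.09 with LacZ, and the groups overlapped widely. Its difference was 0.016, with a 95% interval from -0.33 to 0.36. This was the brightest of 4 Cdc45 probe sets. The others gave 0.056, 0.24 and 0.47, none past the threshold, and the last was too dim to be tested.

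**Figure D2:**
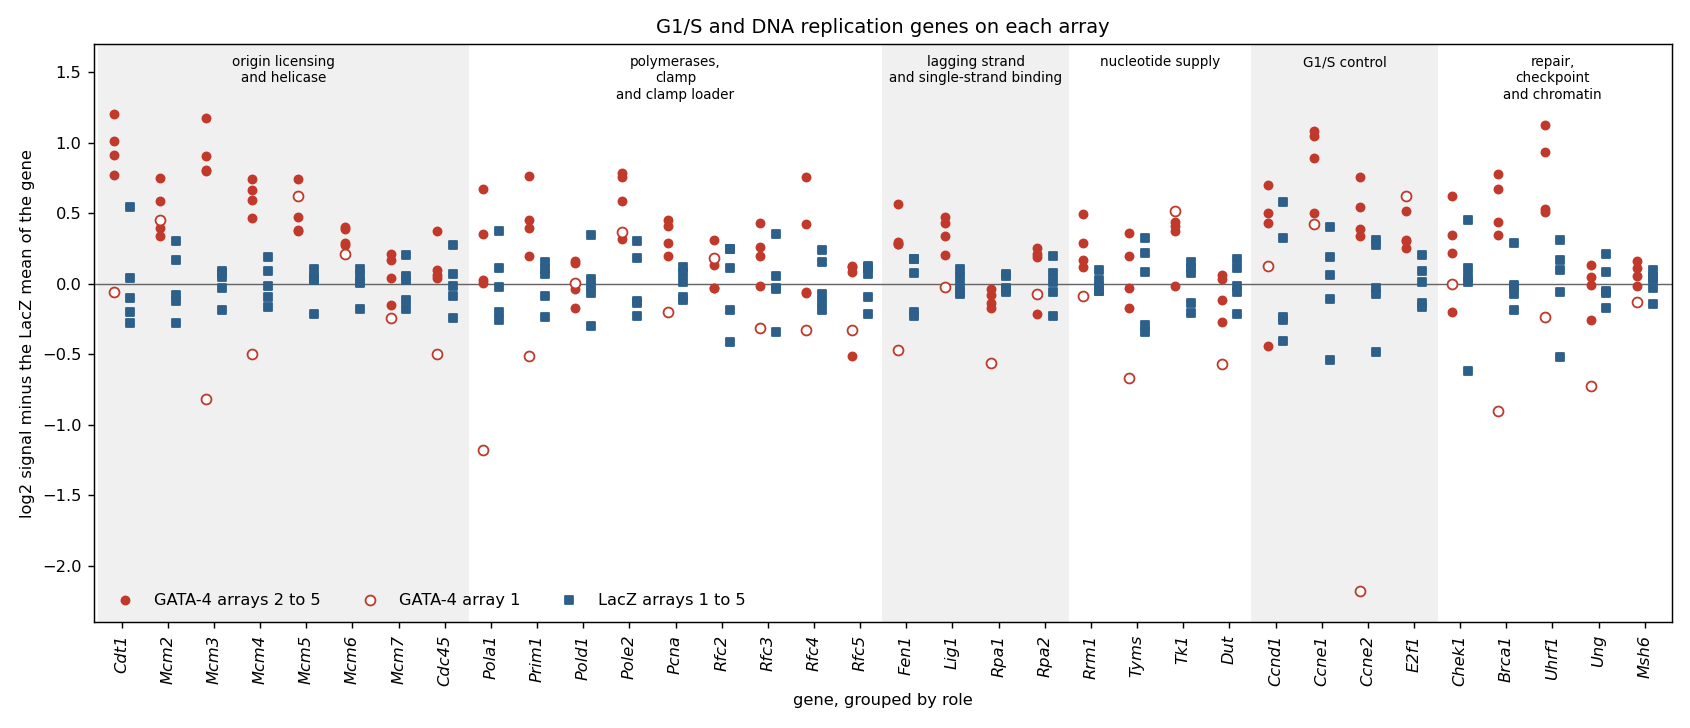
Log2 signal of 34 genes on each of the 10 arrays, minus the gene's LacZ mean (vertical axis), with genes grouped by role along the horizontal axis; filled circles are GATA-4 arrays 2 to 5, open circles the dim GATA-4 array 1 and squares the LacZ arrays. Mcm2, Mcm5, Mcm6, Pole2, Ccne1 and E2f1 have all circles above all squares, while the open circle lies far below the squares for Mcm3, Pola1 and Ccne2.

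Polymerase, clamp and clamp loader genes had 9 measured members, of which none rose or fell, with a median difference of 0.11. Pole2, an accessory subunit of the leading-strand polymerase epsilon, read 6.41, 6.83, 6.80, 6.64 and 6.37 with GATA-4, against 6.35, 5.92, 5.82, 5.91 and 6.23 with LacZ. The groups touched without crossing, at 6.37 with GATA-4 and 6.35 with LacZ, and the difference of 0.56 (SE 0.16) just missed the threshold (limma adjusted p = 0.0584). Pcna, the sliding clamp, read 10.64 on the dim array and 11.25, 11.29, 11.03 and 11.13 on the others, against 10.96, 10.85, 10.72, 10.74 and 10.92 with LacZ. Only the dim array lay below the LacZ range, and the difference was 0.23 (SE 0.11, limma adjusted p = 0.259). Prim1, the primase that starts each strand, had the same order of arrays. It read 7.06 for the dim array and 7.77 to 8.34 for the others, against 7.33 to 7.73 with LacZ. The Prim1 difference was 0.26 (SE 0.20, limma adjusted p = 0.472).

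Pola1, the catalytic subunit of the priming polymerase alpha, ran from 5.76 to 7.61 with GATA-4, against 6.67 to 7.31 with LacZ, and its difference of -0.025 had a 95% interval from -0.63 to 0.58. Pold1, the catalytic subunit of polymerase delta, ran from 6.62 to 6.95 with GATA-4, against 6.49 to 7.13 with LacZ, a difference of 0.020. The clamp loader subunits Rfc2, Rfc3 and Rfc4 differed by 0.11, 0.11 and 0.15, each with overlapping groups. For Rfc5 the 2 probe sets disagreed. The brighter, by which the gene was read, gave a difference of -0.10 (SE 0.15, limma adjusted p = 0.726). The other read 7.55, 7.70, 7.56, 7.20 and 7.46 with GATA-4, against 6.98, 6.93, 6.63, 7.07 and 6.93 with LacZ, and that signal rose by 0.59 (SE 0.13, limma adjusted p = 0.0243). With the mean of both probe sets the Rfc5 difference was 0.24, so its direction depends on the probe set.

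Among genes of the lagging strand and of single-strand binding, none of the 4 rose or fell. Lig1, the ligase that joins Okazaki fragments, read 7.52, 7.88, 8.02, 7.74 and 7.98 with GATA-4, against 7.47, 7.59, 7.49, 7.65 and 7.53 with LacZ. The dim array lay inside the LacZ range, and the difference of 0.28 (SE 0.12) had a limma adjusted p of 0.170. The other Lig1 probe set gave 0.15 (limma adjusted p = 0.752). Fen1, the flap nuclease, read 6.26 on the dim array and 7.01, 7.30, 7.03 and 7.01 on the others, against 6.50 to 6.91 with LacZ. The Fen1 difference was 0.19 (SE 0.18, limma adjusted p = 0.583). Rpa1, the large subunit of the single-strand binding complex, read lower on average: 9.48, 9.91, 9.87, 9.97 and 10.01 with GATA-4, against 9.99, 10.02, 10.11, 10.10 and 10.01 with LacZ. Its difference of -0.20 (SE 0.10) did not pass (limma adjusted p = 0.281), and its difference was -0.10 without the dim array. Rpa2, the middle subunit, differed by 0.072 with overlapping groups.

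Of the genes that supply nucleotides 4 were measured and none rose or fell. Tk1, the cytosolic thymidine kinase of S phase, read 8.04, 7.96, 7.89, 7.51 and 7.93 with GATA-4, against 7.68, 7.39, 7.32, 7.63 and 7.60 with LacZ. All but GATA-4 array 4 lay above the LacZ range, the dim array highest. The difference of 0.34 (SE 0.13) had a limma adjusted p of 0.134. Other Tk1 probe sets gave 0.43 (limma adjusted p = 0.0888) and -0.30, the latter too dim to be tested. Rrm1, the large subunit of ribonucleotide reductase, read 8.79, 9.17, 9.38, 9.04 and 9.00 with GATA-4, against 8.83, 8.83, 8.91, 8.86 and 8.98 with LacZ. Only the dim array lay below the LacZ range, and the difference was 0.20 (SE 0.11, limma adjusted p = 0.326). Tyms, the thymidylate synthase, differed by -0.062 and Dut, which breaks down dUTP, by -0.17 (SE 0.13), and both overlapped between groups. The other Dut probe set, too dim to be tested, gave 0.015.

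Of the 4 genes that control the G1/S step, Ccne1 rose, where 3.71% of all genes tested did. It read 6.07, 6.74, 6.70, 6.16 and 6.55 with GATA-4, against 6.05, 5.71, 5.11, 5.84 and 5.54 with LacZ, a difference of 0.79 (SE 0.21, limma adjusted p = 0.0452). The lowest GATA-4 value, on the dim array, and the highest LacZ value were almost equal. Signals this dim give approximate folds, and with 16 added to every signal the Ccne1 difference was 0.63. E2f1, the transcription factor that drives many of these genes, read 6.79, 6.48, 6.68, 6.47 and 6.42 with GATA-4, against 6.18, 6.00, 6.03, 6.26 and 6.37 with LacZ. The groups did not overlap, with the dim array highest, and the difference of 0.40 (SE 0.14) missed the threshold (limma adjusted p = 0.108).

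Ccne2, which encodes cyclin E2, read 4.22 on the dim array and 6.79, 7.16, 6.94 and 6.73 on the other GATA-4 arrays, against 5.92, 6.67, 6.37, 6.33 and 6.71 with LacZ. That single value set its sign: the difference was -0.030 (SE 0.45) with all arrays and 0.51 without the dim array, where limma's adjusted p was 0.0616. The other Ccne2 probe set, too dim to be tested, gave -0.73, with 0.13 on the dim array. Ccnd1, which encodes cyclin D1 of early G1, varied widely within each group, from 9.06 to 10.20 with GATA-4 and from 9.09 to 10.08 with LacZ. Its 3 probe sets gave differences of 0.26, 0.23 and 0.47, none past the threshold.

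Of the repair, checkpoint and chromatin genes 4 were tested and none rose or fell. Uhrf1, which carries DNA methylation over to new strands, read 5.14 on the dim array and 6.32, 6.51, 5.91 and 5.89 on the others, against 5.69, 5.32, 4.86, 5.48 and 5.55 with LacZ. The difference of 0.57 (SE 0.26) had a limma adjusted p of 0.212. Brca1, a protein of homologous recombination, read 3.33 for the dim array and 4.58 to 5.01 for the others, against 4.05 to 4.52 with LacZ, all below the filter, which stood at a mean of 5.17. An exact two-sided permutation test on Brca1 gave p = 0.437. Chek1, the replication checkpoint kinase, differed by 0.20, Msh6, of mismatch repair, by 0.035 and Ung, which removes uracil from DNA, by -0.16, each with overlapping groups.

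**Figure D3:**
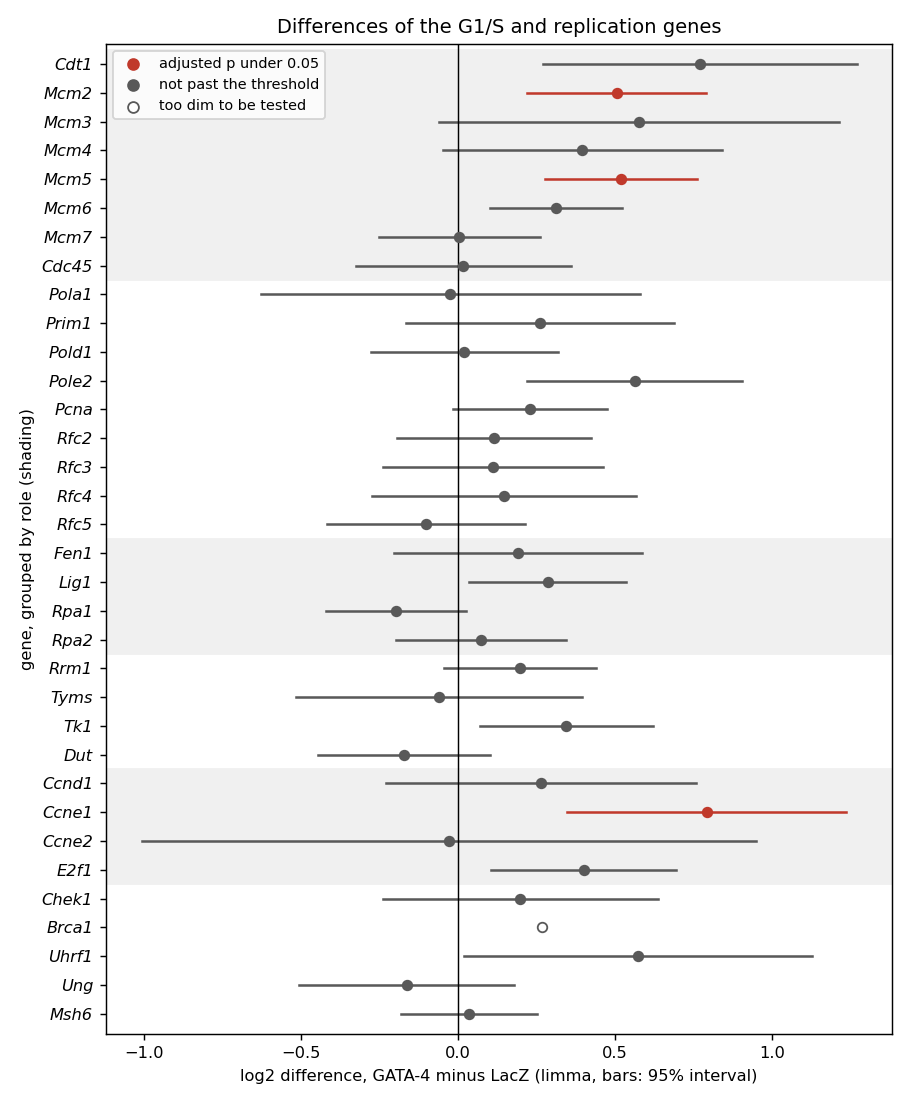
Log2 difference, GATA-4 minus LacZ, of 34 genes (horizontal axis) with limma's 95% interval as a bar, genes listed down the page by role with alternate shading; n = 5 arrays in each group. Mcm2, Mcm5 and Ccne1 passed the threshold, Ccne2 and Mcm3 have the widest intervals, and Brca1, too dim to be tested, has no interval.

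The GATA-4 arrays were not alike for these genes. On GATA-4 arrays 2 to 5 together, 16 of the 33 tested genes (48.5%) lay above every LacZ array, where 9.71% of all genes did. On the dim array 16 of the 33 lay below every LacZ array and 7 above, and of all genes 34.5% lay below and 33.9% above. The 7 genes above were Mcm2, Mcm5, Mcm6, Pole2, Tk1, Ccne1 and E2f1. The standard deviation was larger with GATA-4 than with LacZ for 27 of the 34 genes with all arrays (79.4%, against 78.4% of all genes), and for 17 of the 34 on GATA-4 arrays 2 to 5 (50%, against 59.7% of all genes). The median deviation of the 34 genes from their means was -0.30 on the dim array and 0.24, 0.36, 0.073 and 0.14 on GATA-4 arrays 2 to 5, against 0.0057, -0.092, -0.27, -0.087 and -0.092 on the LacZ arrays. The dim array and LacZ array 3 were the lowest, and the part of signal strength in these values was not tested.

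**Figure D4:**
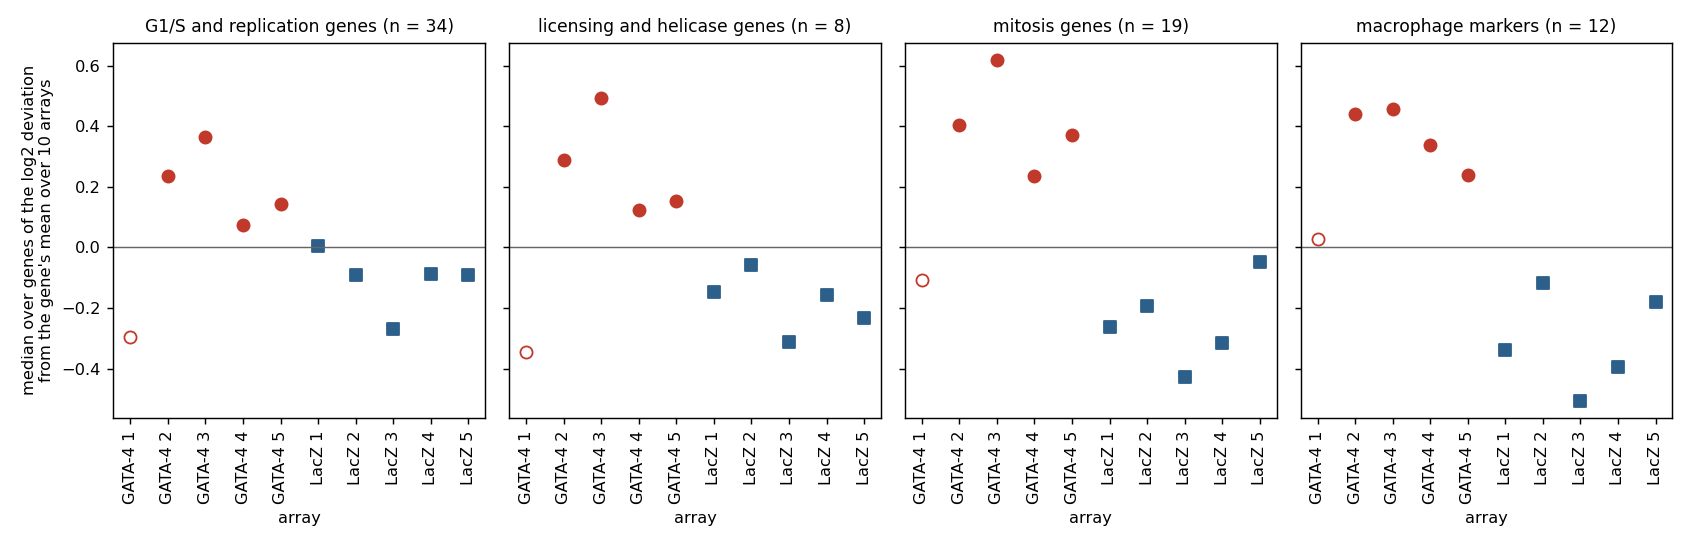
Median over genes of the log2 deviation from each gene's mean over 10 arrays (vertical axis), by array (horizontal axis), for the 34 replication genes, their 8 licensing and helicase genes, 19 mitosis genes and 12 macrophage markers; circles are GATA-4 arrays, the open one the dim array, and squares LacZ arrays. The dim array lies below every LacZ array for the replication genes and their licensing and helicase genes, within the LacZ range for mitosis genes and above it for macrophage markers.

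The calls depended on single arrays. Without the dim array 12 of the tested genes rose and none fell, where 9.95% of all genes rose: Mcm2 to Mcm6, Cdt1, Prim1, Pole2, Pcna, Lig1, Ccne1 and Uhrf1. Without any other array 0 or 1 gene rose. Calls over all genes fell in those fits too, from 397 of 10688 with all arrays. They ranged from 101 of 10694 without LacZ array 3 to 308 of 10674 without GATA-4 array 2. Of the 10 fits with an array left out, Mcm5 kept its call in 4, Mcm2 in 2 and Ccne1 in 1. The labels name no batch, but the sample numbers of GATA-4 arrays 4 and 5 are separate from the rest, and without both none of these genes rose by limma, where 1.03% of all genes did. With each array centred on its median Ccne1 and Mcm5 rose and Mcm2 did not, where 2.07% of all genes rose, and with the dim array left out as well 11 rose, where 7.56% did. In the signals as deposited none rose either, where 0.0655% of all genes did. All the limma adjusted p-values of these genes were 0.993 or more there. Gata4, the transferred gene, was not called in that setting either (difference 0.70, limma adjusted p = 0.993).

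**Figure D5:**
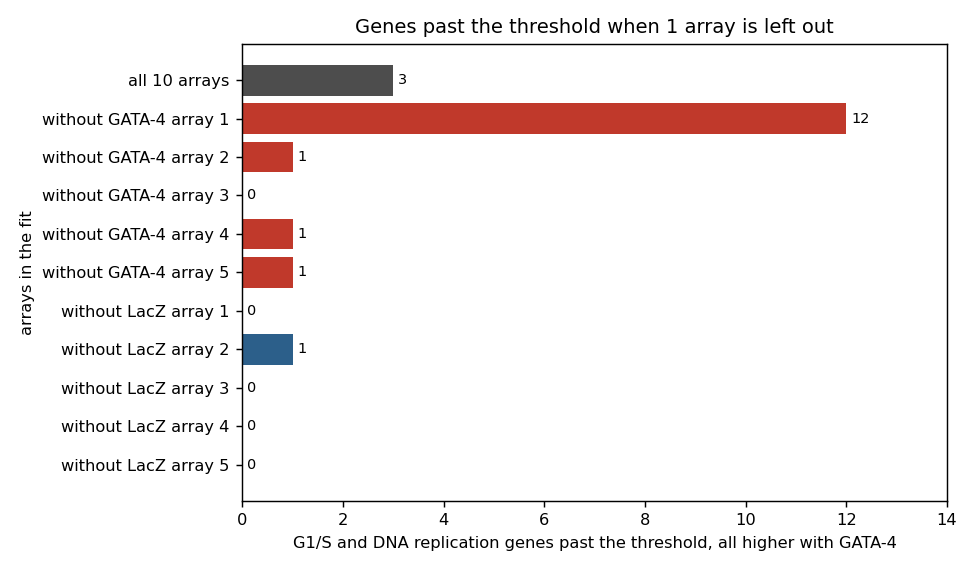
Number of replication genes past the threshold (horizontal axis), all of them higher with GATA-4, in limma fits on all 10 arrays and with each array left out (down the page). The count is 3 with all arrays, 12 without GATA-4 array 1 and 0 or 1 without any other array. Over all genes tested, not drawn, 397 rose with all arrays, 1064 without GATA-4 array 1 and 101 to 308 without any other array.

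Other genes of the pathway, 77 of 89 listed, were measured as well. Of the 65 tested 5 rose and none fell (7.69%), with a median difference of 0.12 over the 77. Of all genes tested 3.71% rose. At an unadjusted limma p under 0.05, 16 of the 65 were higher and 5 lower, where 12% of all genes were higher and 12.2% lower. Mybl2, a transcription factor of S phase and an E2F target, rose 1.96-fold, with 6.16, 6.01, 6.42, 6.38 and 6.49 with GATA-4, against 5.16, 5.43, 5.59, 5.52 and 4.90 with LacZ (limma adjusted p = 0.0137). Its call held with any single array left out. Wdhd1, which ties polymerase alpha to the helicase, rose 1.65-fold (limma adjusted p = 0.0456), but kept its call in only 1 of the 10 fits with an array left out. Nme1, a nucleoside diphosphate kinase, rose 1.45-fold (limma adjusted p = 0.0248).

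The other 2 work against replication. Cdkn1a, the p21 inhibitor of cyclin-dependent kinases, rose 1.46-fold, with 11.31, 11.39, 11.50, 11.18 and 10.82 with GATA-4, against 10.82, 10.80, 10.32, 10.80 and 10.75 with LacZ (limma adjusted p = 0.0315). Samhd1, which breaks down deoxynucleotides and is also known to block viruses in myeloid cells, was 2.24-fold higher (limma adjusted p = 0.0248). Of the 10 such fits, Cdkn1a kept its call in 2 and Samhd1 in 4. Of 18 further repair, checkpoint and chromatin genes on the array 13 were tested, and none passed the threshold, with a median difference of 0.43 over the 18.

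Genes of mitosis, the phase that follows replication, lay higher. Of 19 tested, 6 rose and none fell, where 3.71% of all genes rose and 2.66% fell. All 19 differences were above 0, where 47.4% of those of all genes tested were. Their median was 0.52, where the replication genes had 0.20. The difference of the medians was not tested. Cdk1, the kinase of mitotic entry, read 8.09, 8.66, 8.75, 8.22 and 8.57 with GATA-4, against 7.48, 7.60, 7.34, 7.43 and 7.73 with LacZ, a 1.92-fold rise (limma adjusted p = 0.00661), and the dim array lay above every LacZ array. Mki67, a marker of dividing cells, rose 1.73-fold, and Kif20a and Kif11, motor proteins of the spindle, 1.61-fold and 1.43-fold. Top2a, which untangles DNA, rose 1.48-fold and Ube2c, which works with the anaphase-promoting complex, 1.49-fold. Without the dim array 16 of the 19 rose, where 9.95% of all genes did. Only 3 rose without GATA-4 array 3, LacZ array 1 or LacZ array 4, where 160, 199 and 204 of all genes did. Without LacZ array 3 it was 1, where 101 of all genes rose, and in the signals as deposited none, where 7 rose. Of the 10 fits with an array left out, Cdk1 kept its call in 10, Mki67 and Top2a in 9 each, Kif20a in 6, Kif11 in 4 and Ube2c in 3.

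Markers of other cells differed too. Of all genes tested 3.71% rose. Of 12 macrophage and monocyte markers, all on the array and none at 0, 8 rose and none fell: Tyrobp, Cd68, Csf1r, Cd14, Lyz2, Fcgr3a, Mrc1 and Laptm5. Their summed level, in intensity units, was 18438 to 23299 on the GATA-4 arrays, against 13149 to 15474 on the LacZ arrays, with no overlap. Of 6 neutrophil markers 5 were on the array and 4 tested, and Csf3r and Il1r2 rose. Their summed level was 262 for the dim array and 1474 to 2431 for GATA-4 arrays 2 to 5, against 245 to 983 for LacZ, and the dim array lay inside the LacZ range. None of 7 tested T and NK cell markers, 1 B cell marker, 5 endothelial markers, 7 fibroblast markers or 6 smooth muscle markers rose or fell. The summed level of the T and NK cell markers was 1039 for the dim array, inside the LacZ range of 951 to 1264. It was 1309 to 1870 for GATA-4 arrays 2 to 5. At an unadjusted limma p under 0.05, 2 T and NK cell and 2 fibroblast markers were higher and 2 endothelial markers lower. Of all genes, 12% were higher and 12.2% lower. The part of these cells in the replication genes was not tested.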

How the data were processed

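Expression was measured in 5 GATA-4 and 5 LacZ left ventricular samples, with 1 array a sample. The authors deposited probe set intensities on a linear scale, and the submitters' processing notes name GCOS, the Affymetrix array software. The sources used here do not give the summary method or any scaling. Groups came from the source label, since titles do not separate them. Of 31042 probe sets that are not array controls, 20826 had a single gene by the platform annotation of GEO, and for 20758 the gene ID was found in RefSeq (GRCr8) and its symbol used. Intensities were taken to log2, quantile normalized and floored at a log2 of 0. The 18625 probe sets whose mean lay above the 40th percentile entered limma's lmFit and eBayes, with an intensity trend and no covariates (limma 3.58.1, R 4.3.3). Exact tests ran over 252 assignments, whose smallest p is 0.00794. The fit was tested on simulated data, and that outcome is not given here. The members, the gene lists and the tests were chosen with earlier results of these data known. All members are accounted for; of the other lists, the genes past the threshold are named, at most 6 in each. The second Rfc5 probe set was singled out after its values were seen. Other settings were the signals as deposited, median centring, an added constant of 16, a floor at the 20th percentile, no filter, a filter at the 60th percentile, no trend, robust eBayes, array weights (statmod 1.5.0), the mean of a gene's probe sets, and arrays left out. Motifs were searched in RefSeq promoters as exact letters on both strands. The number of arrays limits the precision.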

Additional observations from a re-analysis of the deposited data

Results flagged for a closer look

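By Dixon's test at the 95% level, 1 array in a group of 5 stood far from the others in 10 of 94 groups of values examined. For independent groups chance gives about 1 in 20. These groups were read on the same arrays and are not independent, so the count cannot be weighed against that rate. Of the 10, 6 were the dim GATA-4 array, each time the lowest. There Mcm3 read 6.30, where GATA-4 arrays 2 to 5 read 7.92 to 8.29, and Mcm4 read 6.97, where they read 7.93 to 8.21. Ccne2 read 4.22, where the others read 6.73 to 7.16, and Brca1 3.33, where they read 4.58 to 5.01. Fen1 read 6.26, where they read 7.01 to 7.30, and Rpa1 9.48, where they read 9.87 to 10.01. Tk1 was low on GATA-4 array 4, at 7.51, where the other GATA-4 arrays read 7.89 to 8.04. Mcm5 was low on LacZ array 2, at 7.31, where the other LacZ arrays read 7.54 to 7.63, and without that array limma no longer called Mcm5. Cdkn1a was low on LacZ array 3, at 10.32, where the others read 10.75 to 10.82. The trimmed mean of the deposited signal was high on LacZ array 2, at 313.6, where the other LacZ arrays had 249 to 263.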

How the results depend on the processing

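The median difference of the replication genes stayed above 0 in all 22 alternatives, between 0.12 and 0.30, and moved by less than the spread between arrays in each. The count of genes that rose was less stable. It was 3 with all arrays, 2 under median centring and with the 60th percentile filter, 4 with the mean of a gene's probe sets, 1 with no filter and with no trend, 12 with array weights, 0 in the signals as deposited and with neither GATA-4 array 4 nor 5, and 11 with median centring and no dim array, a setting chosen after seeing the data. With single arrays left out it ran from 0 to 12. Over all 10688 genes tested 397 rose, and this number moved as well. It was 221 under median centring, 422 of 8338 with the 60th percentile filter and 475 with the mean of a gene's probe sets. It was 278 of 14217 with no filter, 253 with no trend, 1026 with array weights and 7 as deposited. With neither GATA-4 array 4 nor 5 it was 110, with median centring and no dim array 809, and with single arrays left out 101 to 1064. None of the replication genes fell in any of these settings, and of the other pathway genes 2 fell with array weights, 2 with median centring and no dim array, and 3 without the dim array. The other pathway genes that rose, 5 with all arrays, were 2 under median centring, 3 with no filter and with the 60th percentile filter, 18 with array weights, 0 as deposited, 1 with neither GATA-4 array 4 nor 5, 20 with median centring and no dim array, and 1 to 22 with single arrays left out. Mitosis genes that rose, 6 with all arrays, were 17 with array weights, 0 as deposited, 1 with neither GATA-4 array 4 nor 5, 16 with median centring and no dim array, and 1 to 16 with single arrays left out. Changed probe sets numbered 988, and 9 as deposited, 619 with no filter, 539 with no trend, 2890 with array weights, 201 with neither GATA-4 array 4 nor 5, 2616 with median centring and no dim array, and 174 to 2849 with single arrays left out; under median centring the split was 322 higher to 401 lower, beside 566 to 422 in the quantile normalized values. Some signs turned. Mcm7 was -0.039 as deposited and -0.041 under median centring, and Ccne2 0.0038 as deposited, 0.0013 under median centring, 0.040 with 16 added, 0.35 with array weights and 0.51 with median centring and no dim array. Pola1 was 0.30 with array weights and 0.27 with median centring and no dim array, where Tyms was 0.089; Pold1 was -0.035 with array weights, Cdc45 -0.0074 without GATA-4 arrays 4 and 5 and Rfc5 0.24 with the mean of its probe sets. With single arrays left out the ranges of those that turned were -0.22 to 0.51 for Ccne2, -0.073 to 0.14 for Cdc45, -0.048 to 0.066 for Mcm7, -0.0012 to 0.077 for Msh6, -0.20 to 0.26 for Pola1, -0.054 to 0.11 for Pold1, -0.0070 to 0.27 for Rfc4 and -0.17 to 0.090 for Tyms. The cause of these changes was not tested, beyond the fewer arrays or genes that some settings hold. No paired analysis was possible because the labels give the groups no shared replicate numbers. Dim signals, such as those of Brca1 and Ccne1, limit what their differences can show.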
